A study of Mus musculus with 6 samples.

Results

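The genes described here are 8 genes of naive and stem-like T cells, taken as a named list: the transcription factors Tcf7, Lef1, Klf2, Bach2 and Satb1 and the receptors Ccr7, Il7r and S1pr1. All 8 were found by symbol among the 34187 gene features of the deposited matrices (Tcf7, ENSMUSG00000000782; Lef1, ENSMUSG00000027985; Ccr7, ENSMUSG00000037944; Il7r, ENSMUSG00000003882; S1pr1, ENSMUSG00000045092; Klf2, ENSMUSG00000055148; Bach2, ENSMUSG00000040270; Satb1, ENSMUSG00000023927). They were followed across the 12 clusters that the authors had annotated among T and NK cells, and across treatments. The data were droplet-based 5′ single-cell RNA sequencing of CD45+ cells, isolated with beads from subcutaneous tumors grown from 6694c2vTRP1 cells, a mouse pancreatic cancer line. C57BL/6 mice of both sexes were the hosts in the study's description of this subcutaneous model, and no age is used here. Mice had been given PBS, mono-IL10 (IL-10 engineered as a monomer) at 26 µg per mouse, or IL10/2-Trikine (mono-IL10 joined to a binder that recruits the IL-2 receptor β chain) at 30.6 µg per mouse. Each had received 2 intraperitoneal doses starting on day 8, and tumors were harvested on day 14. All 3 groups thus shared the tumor line, the route and the schedule, and none was without a tumor. Each group held 5 mice, marked by hashtag antibodies and pooled into 1 library per treatment, so that treatment and library cannot be told apart. The mouse was the replicate in every test, and the p-values measure the spread between mice within a library.

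TCF-1 (encoded by Tcf7) and LEF-1 are related DNA-binding proteins that guide thymocyte development and keep naive and memory-precursor T cells able to self-renew, and TCF-1 is also used by developing and resting NK cells. KLF2 drives the genes with which resting lymphocytes leave tissue, among them S1pr1, whose product senses sphingosine-1-phosphate. BACH2 restrains effector programs, and SATB1 is a chromatin organizer of thymocytes. CCR7 leads cells to lymph nodes, and the IL-7 receptor α chain (Il7r) gives survival signals. Activated T cells commonly lower these genes, and IL-2 receptor signaling through STAT5 is known to lower Il7r in T cells.

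The authors' annotation covered 516 PBS, 843 mono-IL10 and 725 IL10/2-Trikine cells, of which 348, 635 and 400 carried a mouse. The median UMI count (unique transcript molecules per cell) was 2780, 3959 and 2635. Between 35 and 215 cells and between 124258 and 995020 summed UMIs stood behind 1 mouse. No annotated cell shared its barcode with an annotated cell of another library, although 408 to 700 of all deposited barcodes recurred between pairs of libraries. Levels are given as counts per 1000000 UMIs of the same cells (CPM) and are compared within a gene only. The clusters were sorted by name into 3 naive clusters (naive_CD4T, naive_CD8T and naive_T), 2 NK clusters (NK and Cycling_NK) and 7 other T clusters, called non-naive T cells below.

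Promoter sequences from RefSeq (build GRCm38.p6, while the authors' notes name GRCm39) were found for 6 of the 8 genes, Tcf7, Lef1, Il7r, Klf2, Bach2 and Satb1. Because the added receptor arm of IL10/2-Trikine acts through STAT5, windows of 300 bases, 250 before and 50 after a gene's start, were searched for TTCNNNGAA, the letters of a STAT site, which read the same on both strands. The letters occurred in 2726 of 32851 promoters, 8.30%. The 6 genes had 14 windows, since some genes have several starts (5 for Satb1, 4 for Lef1, 2 for Tcf7 and 1 each for Il7r, Klf2 and Bach2). The letters were in 2 of these windows, those of Il7r and Bach2. Tcf7 is shown beside these because its level differed within NK cells. The windows are Il7r (chr15:9529827-9530126, minus strand), Bach2 (chr4:32417185-32417484, plus strand) and the upstream start of Tcf7 (chr11:52282965-52283264, minus strand), each 5′ to 3′, with the searched letters in capitals.
Il7r: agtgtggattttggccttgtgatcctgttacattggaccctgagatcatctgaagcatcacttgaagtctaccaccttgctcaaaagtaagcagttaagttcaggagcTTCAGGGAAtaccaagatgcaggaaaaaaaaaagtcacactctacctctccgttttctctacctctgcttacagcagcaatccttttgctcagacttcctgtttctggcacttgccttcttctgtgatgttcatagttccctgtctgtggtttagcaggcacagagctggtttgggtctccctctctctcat
Bach2: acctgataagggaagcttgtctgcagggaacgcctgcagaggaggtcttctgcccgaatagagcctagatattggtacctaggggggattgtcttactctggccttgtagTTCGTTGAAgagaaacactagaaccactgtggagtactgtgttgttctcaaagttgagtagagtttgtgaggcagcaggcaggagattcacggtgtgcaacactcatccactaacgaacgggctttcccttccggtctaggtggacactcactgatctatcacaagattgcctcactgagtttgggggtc
Tcf7: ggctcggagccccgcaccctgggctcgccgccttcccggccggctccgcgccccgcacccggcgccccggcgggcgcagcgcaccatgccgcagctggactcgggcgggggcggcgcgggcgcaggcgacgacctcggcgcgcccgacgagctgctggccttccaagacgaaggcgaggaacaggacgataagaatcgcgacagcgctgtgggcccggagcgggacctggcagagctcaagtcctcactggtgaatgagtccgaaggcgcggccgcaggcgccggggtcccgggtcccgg
The letters began 142 bases before the start of Il7r and 140 bases before that of Bach2. A match describes the letters and is not evidence of a bound site.

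Across clusters the 8 genes did not share 1 pattern, and the name of the list was borne out only in part (cells of all libraries summed; the clusters had been made from these genes among others, so no test is given). Lef1, Bach2 and Satb1 were highest in naive_T, at 595, 882 and 1995 CPM, a cluster of only 25 cells. These sums depend on the library: in the 5 PBS and 19 mono-IL10 cells of naive_T, Satb1 was 5209 and 1076 CPM, Bach2 1941 and 587 CPM, and Lef1 409 (4 UMIs) and 661 CPM. Klf2 was 192 CPM in naive_T and 187 CPM in naive_CD4T, which do not differ beyond counting error. All 10 Klf2 UMIs of naive_T came from the mono-IL10 library. Tcf7 and S1pr1 were highest in naive_CD4T, at 358 and 297 CPM, although within the mono-IL10 library S1pr1 was 290 CPM there and 330 CPM in Th17/ILCs (11 cells), with overlapping counting intervals. The receptors Il7r and Ccr7 were highest outside the naive clusters, Il7r in Th17/ILCs at 1848 CPM and Ccr7 in act_CD4T at 908 CPM.

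Several clusters that are not naive carried these transcripts in quantity. Il7r stood at 1002 CPM in Treg, above its 710 CPM in naive_CD4T and 161 CPM in naive_CD8T. Tcf7 in the NK cluster was 151, 116 and 67 CPM in the PBS, mono-IL10 and IL10/2-Trikine libraries. It had no UMI in Treg or Cycling_Treg, which allows levels of up to 8.95 and 14.3 CPM there (3 counts over the cluster's UMIs, counting error only). Bach2 was 271 CPM in NK and 18 CPM in Treg, and Satb1 was 642 CPM in NK against 312 CPM in naive_CD8T. S1pr1 was close to absent from NK, with a level of 3.0 CPM. Ccr7 had no UMI in naive_T, which allows up to 57.5 CPM, and 138 CPM in naive_CD4T.

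**Figure D1:**
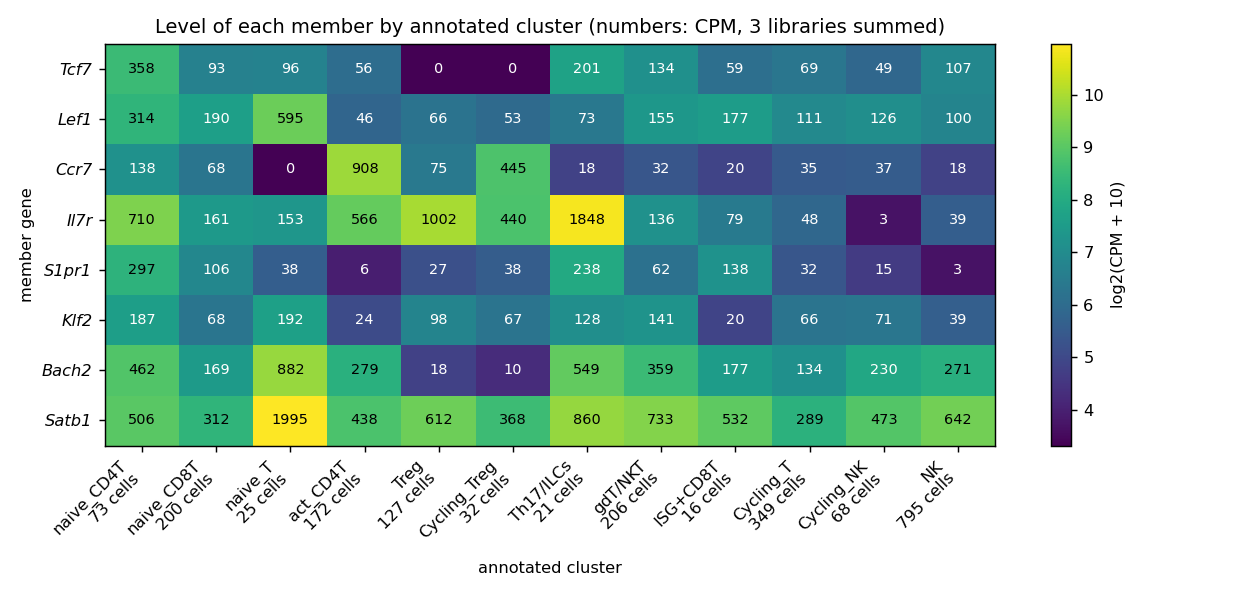
Level of each of the 8 genes in the 12 annotated clusters, cells of all 3 libraries summed, with CPM printed in each field and the color showing log2(CPM + 10). Summed in this way, Lef1, Bach2 and Satb1 peak in naive_T and Tcf7 and S1pr1 in naive_CD4T, Klf2 is 192 and 187 CPM in these 2 clusters, and Ccr7 peaks in act_CD4T (908 CPM) and Il7r in Th17/ILCs (1848 CPM).

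The clusters' own markers put a limit on these names. T cell receptor and CD3 transcripts were present in all 3 naive clusters, with Cd3e at 484 CPM in naive_CD4T, 721 CPM in naive_CD8T and 211 CPM in naive_T. Cd4 was 132 CPM in naive_CD4T, which also held Cd8a at 121 CPM. The act_CD4T cluster, where Ccr7 was highest, held Cd8a at 266 CPM and Cd8b1 at 246 CPM beside Cd4 at 393 CPM. In NK, Ncr1 was 196 CPM and Cd3e 6 CPM.

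The genes whose profile over the 12 clusters was most like the mean of the 8, among 7254 genes with at least 100 UMIs, were Sirt1 (Pearson r = 0.95), Dcaf6 (0.92), Clk1 (0.89), Gpr132 and Btbd9. The next 5 were Kansl2, mt-Co1, Rictor, Thada and Ppp4r3b, down to r = 0.86. The 8 genes' own correlations with that mean ran from 0.72 for Tcf7 to 0.44 for Il7r and -0.28 for Ccr7. These values describe 12 clusters that share libraries and differ in depth.

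The first comparison asks how the genes differed between treatments when all annotated T and NK cells of a mouse were summed, naive cells included. In IL10/2-Trikine tumors 6 of the 8 genes were lower than with PBS (Il7r, Ccr7, S1pr1, Klf2, Tcf7 and Bach2), and Lef1 and Satb1 did not pass the test. S1pr1 and Klf2 entered the test almost wholly through the PBS and mono-IL10 mice, since the filter on low counts asked for 36.2 CPM in at least 5 mice, and 0 and 1 of the 5 IL10/2-Trikine mice reached it. Neither is therefore counted as support. Of the other 6 genes, 4 were lower than with PBS (Il7r, Ccr7, Tcf7 and Bach2). Of all 4595 genes tested, 4.79% were lower in this comparison and 9.42% passed in either direction. The list was chosen with earlier results of these data known, so an excess over these shares is a description and not support. Against mono-IL10, IL10/2-Trikine was lower for 3 genes (Il7r, Ccr7 and S1pr1), 2 of them among those 6, beside 4.94% of all genes lower and 8.86% in either direction. With mono-IL10 against PBS, only Bach2 passed, beside 0.413% lower and 1.11% in either direction. A gene counts as passed at an adjusted p under 0.05 in edgeR's quasi-likelihood test (Benjamini-Hochberg over all genes tested). The 3 comparisons share their groups and are not independent.

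Il7r, the receptor chain for IL-7, passed in both comparisons of IL10/2-Trikine. Its levels in the 5 PBS mice were 265, 148, 413, 201 and 302 CPM. They were 181, 261, 311, 186 and 189 CPM with mono-IL10 and 98.3, 95.8, 56.3, 109 and 111 CPM with IL10/2-Trikine. Every IL10/2-Trikine mouse lay below every mouse of both other groups. On the log2 scale the fold change was -1.40 ± 0.24 (SE) against PBS (edgeR, adjusted p = 0.00068) and -1.20 ± 0.23 against mono-IL10 (adjusted p = 0.0015), and both calls held without each of the 15 mice in turn.

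Ccr7 stood at 148, 134, 287, 162 and 296 CPM in PBS mice. With mono-IL10 it was 194, 165, 14.6, 157 and 179 CPM, and with IL10/2-Trikine 37.4, 72.5, 56.3, 61.3 and 111 CPM. All IL10/2-Trikine mice were below all PBS mice, but mono-IL10 mouse 3 was the lowest of all. The log2 fold change was -1.43 ± 0.35 against PBS (edgeR, adjusted p = 0.010) and -1.15 ± 0.33 against mono-IL10 (adjusted p = 0.028). The first call held without any 1 mouse. The second ended without mono-IL10 mouse 1 or 5 or IL10/2-Trikine mouse 1, 2, 3 or 4 (edgeR, adjusted p = 0.0532 to 0.0833, log2 fold change -0.99 to -1.14).

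S1pr1, which follows KLF2 in resting lymphocytes, was low throughout. It was 40.8, 36.2, 20.5, 54.7 and 19.3 CPM with PBS, 34.2, 70.1, 53.5, 34.9 and 29.2 CPM with mono-IL10, and 9.36, 0, 32.2, 6.81 and 6.53 CPM with IL10/2-Trikine. IL10/2-Trikine mouse 3 overlapped both other groups and the other 4 mice did not. These levels rest on 8, 10, 5, 22 and 3 S1pr1 UMIs with PBS, 34, 40, 11, 32 and 15 with mono-IL10, and 2, 0, 4, 1 and 2 with IL10/2-Trikine. The gene thus passed the filter on low counts only through the groups where it was higher, which ties its being tested to a fall with IL10/2-Trikine. The fitted log2 fold changes, -2.20 ± 0.59 against PBS and -2.43 ± 0.52 against mono-IL10, are for this reason given as a description. Without IL10/2-Trikine mouse 2, which had no S1pr1 UMI, the first became -1.64 and no longer passed. Without PBS mouse 4 or mono-IL10 mouse 2 the gene did not pass the filter.

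Tcf7 was 91.8, 119, 164, 104 and 135 CPM with PBS, 94.5, 116, 38.9, 87.1 and 70.1 CPM with mono-IL10, and 79.6, 62.1, 80.5, 20.4 and 75.2 CPM with IL10/2-Trikine. The IL10/2-Trikine mice lay below the PBS mice without overlap and overlapped the mono-IL10 mice. Against PBS the log2 fold change was -0.88 ± 0.25 (edgeR, adjusted p = 0.028), and against mono-IL10 it was -0.45 ± 0.24 (adjusted p = 0.26). The call ended without PBS mouse 3 or 5 or IL10/2-Trikine mouse 2 or 4 (edgeR, adjusted p = 0.0507 to 0.0847, log2 fold change -0.73 to -0.85).

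Bach2 passed against PBS with mono-IL10 and with IL10/2-Trikine, each set against the same PBS library. It was 250, 340, 291, 291 and 251 CPM with PBS, 166, 214, 190, 195 and 164 CPM with mono-IL10, and 154, 153, 217, 279 and 190 CPM with IL10/2-Trikine. The mono-IL10 mice lay wholly below the PBS mice, and 1 IL10/2-Trikine mouse reached into the PBS range. In log2 terms the change was -0.58 ± 0.14 for mono-IL10 (edgeR, adjusted p = 0.045) and -0.57 ± 0.15 for IL10/2-Trikine (adjusted p = 0.020), with 0.01 ± 0.15 between the cytokines. The mono-IL10 call ended in 10 of 15 leave-one-out fits (without PBS mouse 2, 3, 4 or 5, mono-IL10 mouse 1, 3, 4 or 5, or IL10/2-Trikine mouse 3 or 5, edgeR, adjusted p = 0.0504 to 0.13). The IL10/2-Trikine call ended without PBS mouse 2 or 4 or IL10/2-Trikine mouse 1 or 2 (adjusted p = 0.0542 to 0.0864).

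Klf2 ranged from 43.4 to 172 CPM with PBS, from 44.2 to 97.4 CPM with mono-IL10 and from 16.3 to 80.5 CPM with IL10/2-Trikine, and the groups overlapped. Its log2 fold change was -1.38 ± 0.43 against PBS (edgeR, adjusted p = 0.043), a call that ended without PBS mouse 3 or 4 or IL10/2-Trikine mouse 1, 2, 4 or 5 (edgeR, adjusted p = 0.0673 to 0.189, log2 fold change -0.91 to -1.40). Only 1 IL10/2-Trikine mouse reached the low-count limit for Klf2 (35 UMIs in all 5), so that its being tested too is tied to a fall. With no filter, where every gene with a UMI was tested, Klf2 had -1.38 ± 0.29 (edgeR, adjusted p = 0.00018). In that fit of 16810 genes the SEs of Klf2 and Ccr7 (0.19) were smaller than in the filtered fit, at nearly the same estimates. Why they were smaller was not tested, and this p is not read as support. Lef1 was 117 ± 44.7, 93.4 ± 40.8 and 106 ± 21.0 CPM (mean ± SD, n = 5) and Satb1 541 ± 41.7, 423 ± 52.1 and 487 ± 64.0 CPM in PBS, mono-IL10 and IL10/2-Trikine. For IL10/2-Trikine against PBS the log2 fold changes were -0.23 ± 0.28 for Lef1 (edgeR, adjusted p = 0.68) and -0.13 ± 0.12 for Satb1 (adjusted p = 0.55).

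Mice that do not overlap give a simpler reading of the same data. The IL10/2-Trikine mice lay wholly below the PBS mice for 3 of the 8 genes (Il7r, Ccr7 and Tcf7), beside 4.33% of all genes, and wholly below the mono-IL10 mice for Il7r alone, beside 4.24%. The mono-IL10 mice lay wholly below the PBS mice for Bach2 and Satb1, beside 2.39%. The median log2 fold change of the 8 genes was -1.13 for IL10/2-Trikine against PBS, where the median of all genes was -0.01. Without S1pr1 and Klf2 it was -0.72. Against mono-IL10 it was -0.80, and -0.23 without these 2 genes, and for mono-IL10 against PBS it was -0.25 and -0.29.

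**Figure D2:**
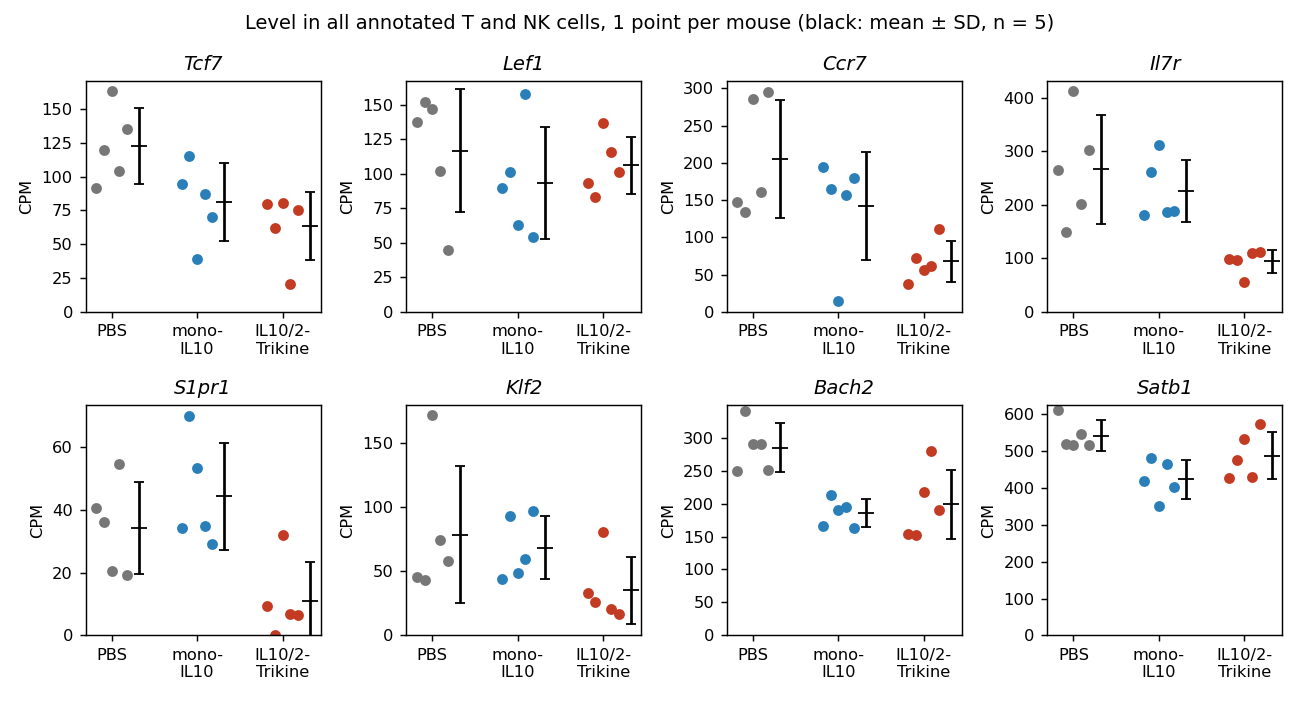
Level of each gene (CPM) in all annotated T and NK cells, 1 point per mouse, with the mean ± SD of 5 mice in black and each axis starting at 0. Every IL10/2-Trikine mouse lies below every other mouse for Il7r (56.3 to 111 CPM), while the groups overlap for Lef1.

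The next question was how much of these differences came with the naive cells, which were few after IL10/2-Trikine. Naive clusters held 15, 9, 10, 14 and 3 cells in the PBS mice, 39, 20, 6, 74 and 16 with mono-IL10, and 1, 1, 0, 0 and 0 with IL10/2-Trikine. As a share of a mouse's UMIs this was 10.1% ± 5.88 (SD, n = 5), 14.4% ± 6.80 and 0.371% ± 0.577. Since the level of a mouse is the exact sum of UMIs from naive, NK and non-naive T cells, each difference between group means splits into 3 parts, given here in CPM of all annotated cells.

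Naive cells carried 6.94 to 26.9% of the differences in Il7r and Ccr7. Il7r was 172 CPM lower with IL10/2-Trikine than with PBS, and 22.5 of these came from naive cells, 13.1% of the difference (9.61 to 17.4% over the means without 1 mouse). For Ccr7 it was 14.5% (12.9 to 16.6%). Non-naive T cells held most of the rest, with 145 CPM for Il7r and 118 for Ccr7. Against mono-IL10 the naive part was 26.9% for Il7r (20.9 to 33.8%), 35.4 of 132 CPM, and 6.94% for Ccr7 (1.57 to 11%). With all annotated cells summed by library, those without a mouse included, the Il7r part was 18.8% against PBS and 32.4% against mono-IL10.

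For the other genes called against PBS the naive part was larger. In that comparison it was 50.9% for S1pr1 (41.5 to 57.7%), 43.3% for Bach2 (35.1 to 59.6%), 39.3% for Tcf7 (30.6 to 49.3%) and 31.4% for Klf2 (24.9 to 35.2%). Lef1 lost 26.7 CPM with the naive cells and 26.3 in non-naive T cells and gained 42.3 in NK cells, for a net fall of 10.7. Satb1 lost 46.9 CPM with the naive cells and more in non-naive T cells, and gained 95.4 in NK cells. Summed by library, with the cells without a mouse included, the naive part against PBS was 29.9% for Bach2, below the range given above. It was 52.7% for S1pr1, 39.9% for Tcf7 and 29.0% for Klf2 in these sums.

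The NK clusters made up more of the cells after IL10/2-Trikine, at 54.0% ± 10.8 of a mouse's UMIs (SD, n = 5), against 30.4% ± 8.74 with PBS and 35.9% ± 5.64 with mono-IL10. This share moved with the sums. For Tcf7 the larger NK share alone would have added 25.0 CPM, while the lower level within NK took away 48.5. For Bach2 the same parts were 66.5 added and 63.0 removed. For Satb1 the larger share added 144 and the lower level took away 48.3.

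**Figure D3:**
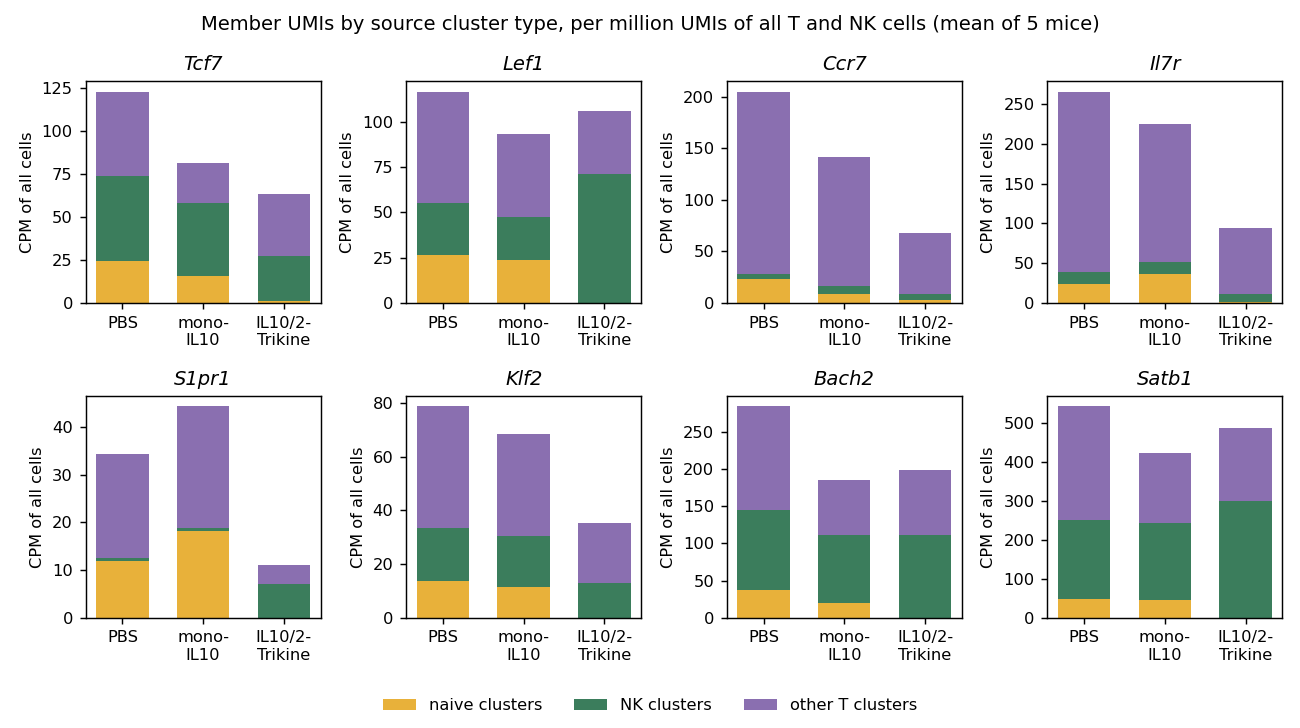
Contribution of naive, NK and non-naive T cells to the level of each gene, in CPM of all annotated cells, as means over the 5 mice of each treatment. The naive part is 0 to 1.04 CPM with IL10/2-Trikine for 7 genes and 3.11 CPM for Ccr7 (8.25 with mono-IL10, 23 with PBS), and for Il7r and Ccr7 most of the bar, and of its fall, lies in non-naive T cells.

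Without the naive clusters, 2 of the 7 genes that could be tested remained lower with IL10/2-Trikine than with PBS (S1pr1 did not pass the filter on low counts). Ccr7 had a log2 fold change of -1.50 ± 0.38 (edgeR, adjusted p = 0.017) and Il7r one of -1.42 ± 0.26 (adjusted p = 0.0014), beside 4.14% of 4347 genes lower. Both were also lower than with mono-IL10, Ccr7 by -1.41 ± 0.36 (adjusted p = 0.016) and Il7r by -1.17 ± 0.25 (adjusted p = 0.0047), beside 3.7% of genes. Bach2, Klf2 and Tcf7 had -0.51 ± 0.16 (edgeR, adjusted p = 0.055), -1.23 ± 0.42 (adjusted p = 0.073) and -0.70 ± 0.26 (adjusted p = 0.10) against PBS. The values of Lef1 and Satb1 were 0.00 ± 0.26 and -0.15 ± 0.13 (edgeR, adjusted p = 0.56 for Satb1). With mono-IL10 against PBS 0 of 7 passed (edgeR and DESeq2, with 1 at an unadjusted p under 0.05), beside 0.207% of genes lower. The Ccr7 calls ended without IL10/2-Trikine mouse 2 (edgeR, adjusted p = 0.0615 against PBS and 0.0738 against mono-IL10), and the second also without mono-IL10 mouse 1 (adjusted p = 0.0517) or IL10/2-Trikine mouse 1 (adjusted p = 0.0507).

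A further fit set each mouse against the level expected from its own mixture of the 12 clusters, so that a difference in cluster shares, naive or not, was taken into account. Each cluster's level was pooled over the mice of all treatments. Where a treatment gave most cells of a cluster, its own level thus entered the expectation, which can draw estimates toward no change. A different make-up inside a cluster, as in Cycling_T below, was not taken into account. Only Bach2 passed, with log2 fold changes of -0.56 ± 0.15 for IL10/2-Trikine (edgeR, adjusted p = 0.028) and -0.63 ± 0.13 for mono-IL10 (adjusted p = 0.013), both against PBS. Of all genes 1.76% and 0.413% were lower in these comparisons. Between IL10/2-Trikine and mono-IL10 0 of 8 passed in edgeR, 3 had an unadjusted p under 0.05, and 2.39% of all genes were lower. Il7r moved from -1.40 to -0.37 ± 0.21 (adjusted p = 0.41), and Ccr7 from -1.43 to -0.68 ± 0.38 (adjusted p = 0.41). Tcf7 stayed at -0.78 ± 0.27 (adjusted p = 0.12) and Klf2 at -1.16 ± 0.42 (adjusted p = 0.14). S1pr1 was at -1.23 ± 0.64 (edgeR, adjusted p = 0.37), Lef1 at -0.17 ± 0.25 (adjusted p = 0.81) and Satb1 at -0.09 ± 0.12 (adjusted p = 0.77). The Bach2 call for IL10/2-Trikine ended without PBS mouse 2, 3 or 4 or IL10/2-Trikine mouse 1, 2 or 5 (edgeR, adjusted p = 0.0525 to 0.131), and that for mono-IL10 without PBS mouse 2 (adjusted p = 0.0567) or mono-IL10 mouse 1 (adjusted p = 0.0563).

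**Figure D4:**
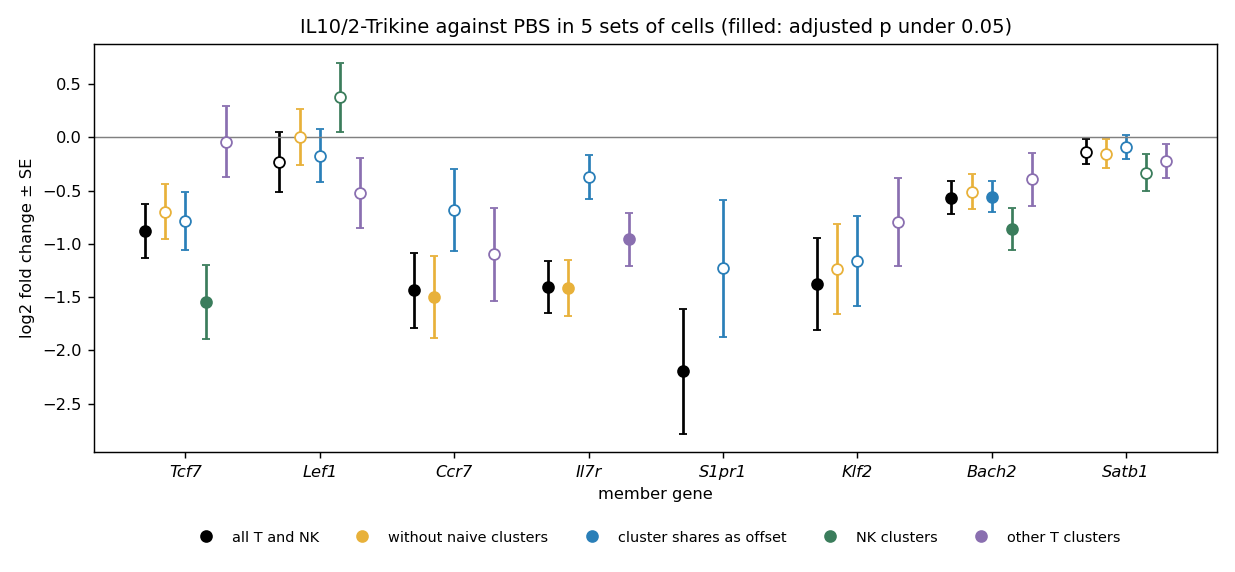
Log2 fold change ± SE of IL10/2-Trikine against PBS for each gene in 5 sets of cells, with filled points for an adjusted p under 0.05 in edgeR. Il7r moves from -1.40 to -0.37 once cluster shares are taken into account, Tcf7 is lowest in NK clusters (-1.54), and Lef1 lies above 0 there. Tcf7 in NK clusters, and S1pr1 and Klf2 in all T and NK cells, passed the low-count filter wholly or almost wholly through the other groups. Their filled points are not support.

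Within NK cells, Tcf7 and Bach2 were lower with IL10/2-Trikine than with PBS, and 4 of the 8 genes had enough counts to be tested (Tcf7, Lef1, Bach2 and Satb1). Tcf7 was 236, 148, 198, 117 and 161 CPM in PBS mice. It was 108, 186, 131 and 86.1 CPM in mono-IL10 mice 1, 2, 4 and 5, mouse 3 having only 9 NK cells and being left out. It was 68.9, 55.3, 45, 9.99 and 75.6 CPM with IL10/2-Trikine, below every mouse of the other groups. Among all genes 2.46% lay without overlap below PBS and 3.1% below mono-IL10. Here the filter asked for 82 CPM in at least 4 mice, which all PBS and mono-IL10 mice and 0 of the 5 IL10/2-Trikine mice reached for Tcf7 (34 UMIs in all 5). Its being tested in this fit is thus tied to a fall with IL10/2-Trikine, and neither its call nor its lack of overlap is read against these shares. Among the other 3 genes, 1 passed against PBS (Bach2) and 0 against mono-IL10.

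In NK cells the log2 fold change of Tcf7 was -1.54 ± 0.35 against PBS (edgeR, adjusted p = 0.010) and -1.25 ± 0.31 against mono-IL10 (adjusted p = 0.033). With no filter on low counts, where every gene with a UMI was tested, it was -1.42 ± 0.33 (edgeR, adjusted p = 0.0036) and -1.34 ± 0.29 (adjusted p = 0.0023). The SEs were again smaller than in the filtered fit, and these p-values are not read as support. Of 2355 genes 2.12% and 1.36% were lower in the filtered fits, and 4.63% passed in either direction against PBS. Tcf7 is not read against these shares. The first call held without any 1 mouse, but the same filter applied in those fits, so this is not support. The second ended without mono-IL10 mouse 1, 2 or 4 or IL10/2-Trikine mouse 2, 3 or 4 (edgeR, adjusted p = 0.052 to 0.0964, log2 fold change -1.04 to -1.33). In the NK cluster alone, without Cycling_NK, the values were -1.45 ± 0.34 (adjusted p = 0.021) and -1.18 ± 0.31 (adjusted p = 0.066).

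Bach2 in NK cells was 206, 347, 480, 373 and 322 CPM with PBS, 234, 229, 288 and 177 CPM with mono-IL10, and 195, 166, 195, 260 and 200 CPM with IL10/2-Trikine. PBS mouse 1, with 10 NK cells, overlapped the other groups. The log2 fold change of IL10/2-Trikine against PBS was -0.86 ± 0.20 (edgeR, adjusted p = 0.012), and without IL10/2-Trikine mouse 2 it was -0.76 and no longer passed. With no filter on low counts it was -0.73 ± 0.22 (edgeR, adjusted p = 0.093), and the call was also lost at equal depth. For mono-IL10 against PBS 0 of the 4 genes passed (edgeR and DESeq2, with 1, Bach2, at an unadjusted p under 0.05), beside 0.0849% of all genes lower.

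Lef1, which encodes the relative of TCF-1, did not pass in NK cells, and its estimate for IL10/2-Trikine lay above 0. It was 88.5, 122, 84.6, 85.5 and 80.5 CPM with PBS, 59.9, 90.8, 131 and 38.8 CPM with mono-IL10, and 103, 122, 165, 150 and 108 CPM with IL10/2-Trikine. The upper PBS mouse and the IL10/2-Trikine mice overlapped. The log2 fold change against PBS was 0.38 ± 0.32 (edgeR, adjusted p = 0.60). In the NK cluster alone it was 0.31 ± 0.32 (edgeR, adjusted p = 0.72). With the Cycling_T cells that had more NK than T marker UMIs added, it was -0.02 ± 0.30 (edgeR, adjusted p = 0.99). The sign of the Lef1 estimate thus moved with which cells were counted. Satb1 was 706 ± 187 CPM with PBS and 547 ± 95.0 CPM with IL10/2-Trikine (SD, n = 5; edgeR log2 fold change -0.33 ± 0.18, adjusted p = 0.32).

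The share of NK cells with a Tcf7 UMI, after every cell had been thinned to 1500 UMIs, was 21.5% ± 5.89 with PBS (SD over 5 mice), 20.9% ± 5.76 with mono-IL10 (4 mice) and 8.55% ± 3.55 with IL10/2-Trikine (5 mice). Unthinned it was 36.4%, 39.9% and 11.4%. In barcodes with macrophage transcripts and no T or NK marker, 1.06%, 0.589% and 1.27% had a Tcf7 UMI at a median of 5502, 6479 and 2892 UMIs, so the shares in NK cells were above this level in each library. Barcodes with tumor epithelial transcripts, deeper at medians of 17610, 25811 and 9095 UMIs, had one in 14.1%, 16.8% and 6.73%. Their Tcf7 levels were 8.20, 7.13 and 7.29 CPM. For Bach2 the thinned shares of NK cells were 39.9% ± 7.62, 29.8% ± 10.9 and 24.2% ± 7.65. Macrophage barcodes themselves held Bach2 in 44.8%, 43.7% and 22.2%, at levels of 135, 119 and 89.2 CPM that ran in the same order as in NK cells, while barcodes with tumor epithelial transcripts held it in 2.42%, 3.08% and 1.48%. The 6 macrophage markers summed to 97.6, 84.8 and 111 CPM in NK cells of the 3 libraries, with Adgre1 at 0 in PBS, and the 5 T cell markers to 208, 190 and 195 CPM.

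Within non-naive T cells, Il7r was lower with IL10/2-Trikine than in both other groups, and it was the only gene of the 7 tested to pass. It was 358, 203, 566, 290 and 456 CPM with PBS, 257, 341, 454, 346 and 341 CPM with mono-IL10, and 161, 172, 122, 235 and 248 CPM with IL10/2-Trikine. The IL10/2-Trikine mice lay below all mono-IL10 mice, as 4.33% of all genes did, and PBS mouse 2 overlapped them. The log2 fold change was -0.96 ± 0.25 against PBS (edgeR, adjusted p = 0.020) and -0.86 ± 0.24 against mono-IL10 (adjusted p = 0.024). Of 2749 genes 3.27% and 4.62% were lower, and 7.38% passed in either direction against PBS. The first call ended without PBS mouse 3 (edgeR, adjusted p = 0.0629), both without IL10/2-Trikine mouse 1 (adjusted p = 0.0525 and 0.0658) or 2 (adjusted p = 0.0746 and 0.0947), and the second without IL10/2-Trikine mouse 3 (adjusted p = 0.0594).

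The make-up of the non-naive T cells differed beside this result. In the Cycling_T cluster, 16 of 55 PBS cells, 18 of 120 mono-IL10 cells and 128 of 174 IL10/2-Trikine cells had more UMIs of the 5 NK markers than of the 5 T cell markers (29.1%, 15% and 73.6%). Over all non-naive T cells the NK markers summed to 1392, 1129 and 2951 CPM and the T cell markers to 2689, 3404 and 1385 CPM. Without these cells Il7r was 370, 260, 623, 285 and 508 CPM with PBS, 259, 368, 550, 400 and 368 CPM with mono-IL10, and 245, 231, 193, 423 and 352 CPM with IL10/2-Trikine, and the groups overlapped. IL10/2-Trikine mice 3 and 4 were then left with 11 and 10 cells, holding 31097 and 23630 UMIs of all genes. The log2 fold change of Il7r became -0.52 ± 0.27 against PBS (edgeR, adjusted p = 0.36) and -0.44 ± 0.26 against mono-IL10 (adjusted p = 0.42). How far the loss of the calls came with the smaller number of cells was not tested.

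Cluster by cluster, the Il7r levels with IL10/2-Trikine were not uniformly below those with PBS. It was 722, 1301 and 878 CPM in Treg of the PBS, mono-IL10 and IL10/2-Trikine libraries (95% exact Poisson intervals, counting error only, 582 to 884, 1123 to 1500 and 658 to 1149). In act_CD4T it was 614 (509 to 736), 557 (490 to 631) and 488 (340 to 679) CPM, with overlapping intervals. In gdT/NKT it was 137 (94.0 to 194), 176 (130 to 233) and 41.4 (13.4 to 96.6) CPM. These library values have no replicate test. Treg and act_CD4T, both rich in Il7r, numbered 51 and 56 cells with PBS, 52 and 88 with mono-IL10, and 24 and 28 with IL10/2-Trikine, while the Il7r-poor Cycling_T numbered 55, 120 and 174.

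The other genes did not pass in the filtered fit of non-naive T cells. Ccr7 was 204, 261, 400, 228 and 385 CPM with PBS, 341, 245, 8.25, 363 and 381 CPM with mono-IL10, and 56.5, 83.6, 122, 171 and 273 CPM with IL10/2-Trikine. The lowest value was again in mono-IL10 mouse 3, and the groups overlapped. The log2 fold changes of IL10/2-Trikine were -1.10 ± 0.44 against PBS (edgeR, adjusted p = 0.14) and -1.12 ± 0.41 against mono-IL10 (adjusted p = 0.10). With no filter on low counts they were -1.13 ± 0.22 (edgeR, adjusted p = 7.7e-05) and -1.24 ± 0.21 (adjusted p = 1.3e-06). The smaller SEs of that fit carry the reservation given for Klf2. Tcf7 was 82.8 ± 29.3, 48.6 ± 23.2 and 77.7 ± 28.5 CPM (SD, n = 5), with -0.04 ± 0.33 against PBS (edgeR, adjusted p = 0.98) and 0.45 ± 0.32 against mono-IL10 (adjusted p = 0.44). Of the 67 Tcf7 UMIs of non-naive T cells with IL10/2-Trikine, 58 were in Cycling_T. Without that cluster Tcf7 was 0, 38.8 and 18.3 CPM in IL10/2-Trikine mice 1, 2 and 5, the only ones left with at least 10 such cells, against 32.5, 96.9, 89.8, 81.5 and 130 CPM with PBS. The IL10/2-Trikine values are near the counting floor. These mice held 62638, 77406 and 54716 UMIs of all genes in such cells, so each value rests on a few Tcf7 UMIs at most.

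Bach2 in non-naive T cells was 238 ± 81.2, 151 ± 36.9 and 202 ± 79.7 CPM with PBS, mono-IL10 and IL10/2-Trikine (SD, n = 5). Its log2 fold change for IL10/2-Trikine was -0.39 ± 0.25 against PBS (edgeR, adjusted p = 0.39) and 0.19 ± 0.25 against mono-IL10 (adjusted p = 0.73). Without Cycling_T the values were -1.44 ± 0.42 (edgeR, adjusted p = 0.10) and -1.16 ± 0.41 (adjusted p = 0.15), from 3 IL10/2-Trikine mice at 47.9, 90.4 and 164 CPM. Without only the NK-marker cells of Cycling_T they were -0.37 ± 0.30 (edgeR, adjusted p = 0.62) and 0.22 ± 0.30 (adjusted p = 0.78). The Bach2 estimate in T cells thus moved with which cells were counted, and passed in none of these fits.

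Klf2, Lef1 and Satb1 had log2 fold changes of -0.79 ± 0.42 (edgeR, adjusted p = 0.27), -0.52 ± 0.33 (adjusted p = 0.39) and -0.22 ± 0.16 (adjusted p = 0.46) for IL10/2-Trikine against PBS in non-naive T cells. Against mono-IL10 they were -0.71 ± 0.39 (edgeR, adjusted p = 0.30), -0.39 ± 0.31 (adjusted p = 0.51) and 0.16 ± 0.15 (adjusted p = 0.60). For mono-IL10 against PBS 0 of 7 passed (edgeR and DESeq2, with 2 at an unadjusted p under 0.05), beside 0.4% of all genes lower.

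The share of non-naive T cells with an Il7r UMI at 1500 UMIs per cell was 30.7% ± 7.36 with PBS, 33.9% ± 13 with mono-IL10 and 18.4% ± 6.40 with IL10/2-Trikine (SD over 5 mice). Unthinned it was 42.3%, 45.6% and 25.7%. Barcodes with tumor epithelial transcripts held Il7r in 0.689%, 0.685% and 0.269%, at higher median depths of 17610, 25811 and 9095 UMIs. Macrophage barcodes held it in 45.9%, 43.6% and 22.8%, unthinned and at medians of 5502, 6479 and 2892 UMIs. Their Il7r level, which takes depth into account, was 212, 185 and 112 CPM, so that it too was lowest in the IL10/2-Trikine library. The macrophage markers summed to 152, 143 and 162 CPM in non-naive T cells. Ccr7 in macrophage barcodes was 54.3, 37.5 and 31.2 CPM. Klf2 was 119, 99.6 and 135 CPM in macrophage barcodes and 89.9, 116 and 97.8 CPM in tumor epithelial barcodes. The part of RNA from such cells in the Il7r, Bach2, Ccr7 and Klf2 levels was not tested.

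**Figure D5:**
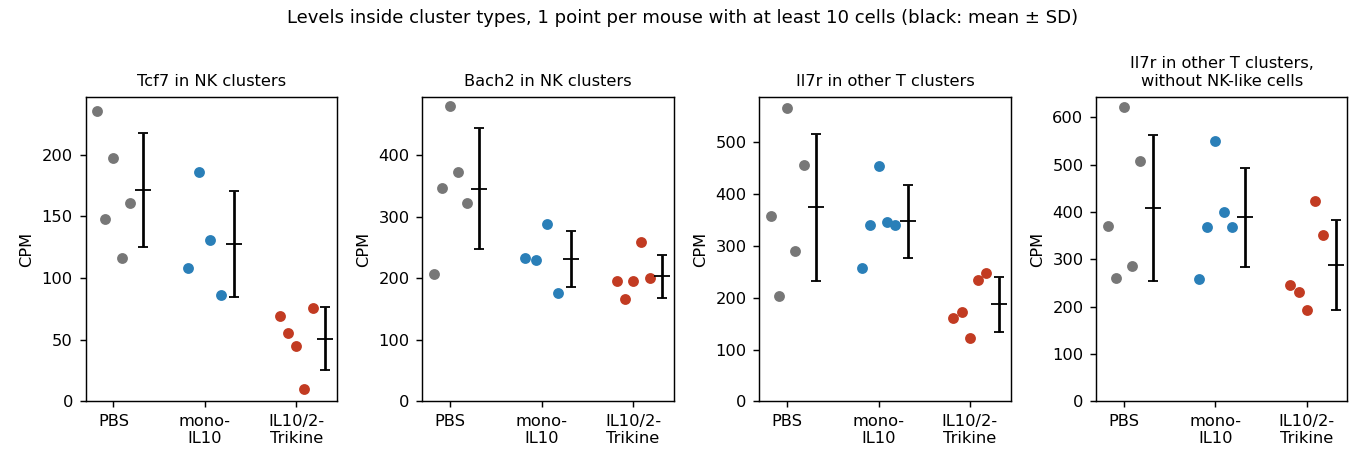
Level (CPM) of Tcf7 and Bach2 in NK cells and of Il7r in non-naive T cells, with and without the Cycling_T cells of higher NK than T marker counts, 1 point per mouse with the mean ± SD in black, 5 mice per group except 4 mono-IL10 mice for NK cells. Tcf7 in NK cells is 9.99 to 75.6 CPM with IL10/2-Trikine, below all mice of the other groups, and Il7r overlaps between groups in the last panel (193 to 423 CPM with IL10/2-Trikine). The lowest and highest of these Il7r values rest on 11 and 10 cells.

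Whether the Tcf7 difference was larger in NK than in non-naive T cells was tested in 1 fit with the mouse as a block. This question was chosen after the data were seen. In the NK fit, 0 of the 5 IL10/2-Trikine mice had reached the low-count limit for Tcf7. The values are therefore a description and are not support. The difference of the log2 fold changes, NK minus T, was -1.42 ± 0.45 for IL10/2-Trikine against PBS (edgeR, unadjusted p = 0.0034 and adjusted p = 0.33) and -1.55 ± 0.42 against mono-IL10 (adjusted p = 0.091). The T cells in this fit include Cycling_T, which held most of the Tcf7 UMIs of the IL10/2-Trikine T cells, and the difference was not tested without that cluster. It did not pass over 3293 genes, of which 0.0607%, 0.334% and 0.0911% passed for IL10/2-Trikine against PBS, against mono-IL10 and for mono-IL10 against PBS. The opposite sign was seen for Lef1, 0.92 ± 0.40 (adjusted p = 0.57) and 0.96 ± 0.36 (adjusted p = 0.38), and 0 of the 7 genes passed in any comparison.

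Naive cells themselves could be compared only between mono-IL10 (4 mice) and PBS (3 mice), since no IL10/2-Trikine mouse held 10 of them. Of 932 genes tested, 0.429% were lower with mono-IL10. Of the 5 list members tested, 0 passed in edgeR and 2 had an unadjusted p under 0.05, Bach2 with a log2 fold change of -1.46 ± 0.43 (adjusted p = 0.13) and Ccr7 with -2.30 ± 0.92 (adjusted p = 0.32). Il7r was 0.06 ± 0.62 there (edgeR, adjusted p = 0.98), Lef1 -0.58 ± 0.37 (adjusted p = 0.57) and Satb1 -0.70 ± 0.39 (adjusted p = 0.48).

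A broader list of 20 genes of naive, memory and stem-like lymphocytes was counted beside the 8 genes. In all T and NK cells 14 could be tested, and 1 rose and 2 fell with IL10/2-Trikine against PBS, beside 4.64% of all genes higher and 4.79% lower. Of these, Ltb, a membrane ligand of the lymphotoxin system, fell (-1.13 ± 0.22, edgeR, adjusted p = 0.0020), as did the antiproliferative gene Btg1 (-0.43 ± 0.13, adjusted p = 0.032). Myb, a transcription factor of progenitors, rose (0.94 ± 0.28, adjusted p = 0.034), and the median of the 14 was -0.34. Klf3, which 0 IL10/2-Trikine mice carried past the low-count limit, is subject to the same reservation as S1pr1. Against mono-IL10, Klf3 (-2.05 ± 0.39, edgeR, adjusted p = 0.0011) and Ltb (-1.29 ± 0.21, adjusted p = 0.00019) fell, and Myb rose (1.24 ± 0.25, adjusted p = 0.0021), with a median of -0.23, beside 3.92% of all genes higher and 4.94% lower. For mono-IL10 against PBS 0 of 14 passed in edgeR, beside 1.11% of all genes in either direction, with a median of -0.08. In NK cells 1 of 10 passed against PBS, Btg2 (-0.73 ± 0.19, edgeR, adjusted p = 0.026), beside 4.63% of all genes in either direction. In non-naive T cells it was 1 of 11, Ltb (-1.21 ± 0.32, edgeR, adjusted p = 0.022), beside 7.38% of all genes.

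Of a list of 16 effector and residency genes 14 could be tested, and with IL10/2-Trikine against PBS 1 rose and 1 fell, 2 of 14 beside 9.42% of all genes. Gzmb, the granzyme B gene of cytotoxic cells, rose with IL10/2-Trikine (1.36 ± 0.19, edgeR, adjusted p = 5.9e-05) and with mono-IL10 (1.26 ± 0.19, adjusted p = 0.00049), both against PBS. Cxcr6, a chemokine receptor of tissue-resident cells, fell with IL10/2-Trikine against PBS (-1.04 ± 0.29, edgeR, adjusted p = 0.023) and against mono-IL10 (-1.69 ± 0.25, adjusted p = 8.2e-05). The medians of the 14 were -0.06, 0.07 and 0.07 for IL10/2-Trikine against PBS, against mono-IL10 and for mono-IL10 against PBS. Gzmb was also higher against PBS within NK cells (1.18 ± 0.26, edgeR, adjusted p = 0.0097), 1 of 9 beside the 4.63% of all genes.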

How the data were processed

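Gene expression and hashtag libraries of tumor CD45+ cells were analysed for 3 treatments of 5 mice. The authors aligned reads with Cell Ranger and deposited UMI counts per gene and barcode, without normalization. Their processing notes name GRCm39, Seurat 5.1.0 and DESeq2 1.46.0. The authors also deposited a table of annotated T and NK cells with clusters and mice, already without hashtag doublets. Its clusters and mice were used, while its counts per cell and percent of mitochondrial UMIs, as the authors computed them, served as checks, and 7858 listed cells of a group not analysed here were left out.

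Counts were summed per mouse and set of cells, for mice with at least 10 cells of the set, and tested across all genes with edgeR 4.0.16 (R 4.3.3) by glmQLFit and glmQLFTest after filterByExpr and TMM, all 3 groups in 1 fit. P-values were Benjamini-Hochberg adjusted, with a threshold of 0.05. DESeq2 1.42.0, other scalings, no filter, equal depth, other cell minimums and leaving out each mouse were alternatives. The study's own summed fits used DESeq2. Cells were thinned to 1500 UMIs for shares of cells, which left out 1 IL10/2-Trikine cell. The fit in naive cells, the test of NK against T cells and the rule for macrophage barcodes (no Ncr1, Klrb1c or Klre1, with at least 10 macrophage UMIs) were chosen after the data were seen. The 8 genes and the other lists were chosen with earlier results of these data known. The 8 genes were followed in every fit that could test them, with up to 4 genes past the threshold from each other list and the 10 genes most alike over clusters on log2(CPM + 10). Scripts were tested on simulated data.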

Additional observations from a re-analysis of the deposited data

Results flagged for a closer look

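In 57 sets of mice (a gene, a treatment and a set of cells), the highest or lowest mouse was checked for a wide gap to the next by Dixon's test, which chance alone meets in about 1 of 20 sets, and 6 met it. In all T and NK cells, Ccr7 was 14.6 CPM in mono-IL10 mouse 3, where the next mouse had 157, and this mouse held the fewest cells, 35. Il7r was 56.3 CPM in IL10/2-Trikine mouse 3 (next 95.8). Klf2 was 172 CPM in PBS mouse 3 (next 74.6) and 80.5 CPM in IL10/2-Trikine mouse 3 (next 32.8). In NK cells, Lef1 was 122 CPM in PBS mouse 2 (next 88.5), and Satb1 was 1032 CPM in PBS mouse 1 (next 664), which had 10 NK cells.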

How the results depend on the processing

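Of 2347 values of single genes under other settings, 2198 were called in both fits with the same direction, or in neither and moved by at most 1 SE. Another 85 lost the call, 23 gained one, 41 moved further without a call in either, and 0 with a call in either fit changed sign. Changes of sign among values without a call were not counted. Some occurred, as for Bach2 in non-naive T cells against mono-IL10 without Cycling_T. Numbers of genes past the threshold follow, with IL10/2-Trikine against PBS first and against mono-IL10 second, each with the share of all genes that passed in the same fit.

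In all T and NK cells, equal depth (124258 UMIs per mouse) left 2 and 1 (9.68% and 7.79%), and 0 for mono-IL10 against PBS, and DESeq2 gave 2 against mono-IL10 (8.27%), where the Ccr7 call was lost. Also against mono-IL10, no filter (3.13%) and only the compared groups in the fit (9.57%) each gave 4. Only the compared groups in the fit gave 5 of 7 against PBS (11.7%). Without naive clusters, DESeq2 gave 1 and 1 (7.13% and 5.73%), and no filter on low counts gave 3 and 4 (2.28% and 2.15%). Total UMIs in place of TMM gave 3 against PBS (8.56%), and equal depth gave 1 against mono-IL10 (4.96%). In NK cells, no filter gave 1 and 2 (0.714% and 0.573%), equal depth 0 and 0 (8.61% and 1.91%; Bach2 lost its call, and Tcf7 had too few counts to be tested), at least 20 cells per mouse 1 against PBS (1.38%), and the NK cluster alone (0.817%) or with the NK-marker Cycling_T cells added (6.26%) gave 0 against mono-IL10. In non-naive T cells, no filter gave 3 and 3 (1.33% and 1.73%), equal depth 1 (Ccr7, the Il7r call being lost) and 0 (9.89% and 8.51%), at least 20 cells 0 and 0 (3.04% and 4.28%), only the compared groups in the fit 2 against PBS (6.75%), and leaving out the NK-marker cells (1.97% and 3.27%) or all of Cycling_T (0.955% and 1.24%) 0 and 0. Equal depth discards counts by construction. For the other settings the cause was not tested.

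Leaving out 1 mouse gave 2 to 6, 2 to 4 and (mono-IL10 against PBS) 0 to 1 in all T and NK cells, 1 to 3, 1 to 3 and 0 to 0 without naive clusters, 1 to 2, 0 to 1 and 0 to 0 in NK cells, 0 to 2, 0 to 2 and 0 to 0 in non-naive T cells, 0 to 1, 0 to 0 and 0 to 1 with cluster shares, and 0 to 2, 0 to 0 and 0 to 0 in the NK cluster alone. Over these fits IL10/2-Trikine against PBS called 6.35 to 9.88% of genes in all T and NK cells, 5.44 to 8.46% without naive clusters, 2.77 to 4.09% in NK cells, 4.11 to 7.31% in non-naive T cells, 2.44 to 3.72% with cluster shares and 1.28 to 2.35% in the NK cluster. Against mono-IL10 the shares were 6.7 to 9.06%, 4.39 to 6.64%, 0.568 to 2.92%, 5.29 to 9.08%, 3.1 to 4.84% and 0.315 to 1.01%. In all T and NK cells IL10/2-Trikine against PBS gave 2 without IL10/2-Trikine mouse 2 and 3 without PBS mouse 4.

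Summing all annotated cells by library moved the naive contribution of Bach2 to 54.5 (PBS), 34.6 (mono-IL10) and 1.89 CPM (IL10/2-Trikine), of Satb1 to 70.6 (PBS) and 7.57 (IL10/2-Trikine), and of Lef1 and S1pr1 to 0.946 (IL10/2-Trikine). Bach2 was in NK cells at 58.8%, 61.3% and 38.2% of unthinned cells, and at 26.5% at 1000 UMIs with PBS. Il7r was in 42.3% (PBS) and 25.7% (IL10/2-Trikine) of unthinned non-naive T cells, and in 21.4% at 1000 UMIs with PBS. Tcf7 was in 36.4% (PBS) and 39.9% (mono-IL10) of unthinned NK cells.

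No paired analysis was possible because hashtag numbers name different mice in each library. Few cells per mouse, 1 library per treatment and 0 to 1 naive cells per IL10/2-Trikine mouse limit what can be compared.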
